A study of Mus musculus with 2 samples.

Results

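The granin family is a group of acidic proteins stored in the dense-core granules of endocrine cells and neurons, and it was described here as 8 genes: Chga, Chgb, Scg2, Scg3, Scg5, Pcsk1n, Vgf and Resp18. Members were chosen by gene symbol, taking every transcript model assigned to one of these genes, and all 8 had reads, out of 18177 annotated genes with reads. The data came from long-read RNA sequencing, in which 1 read can span a whole transcript, of the adrenal gland. The mice were B6CASTF1/J males aged 14 days, the first-generation hybrids of the strains C57BL/6J and CAST/EiJ. No animal carried a named mutation or treatment, so the series held 1 group of 2 libraries, replicate 2 and replicate 1, and no contrast between conditions. The labels name a set of males and give both libraries the same donor. Whether separate animals entered each library is therefore unclear, and every p-value measures the difference between these libraries, which may be technical.

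Granins enter the regulated secretory pathway as precursors, aggregate in the trans-Golgi network at low pH and high calcium, and help to form the granules that hold catecholamines in the chromaffin cells of the adrenal medulla. Many are cut by prohormone convertases at pairs of basic amino acids into peptides that are released together with adrenaline and noradrenaline. Some members act on the processing machinery itself: Scg5 is the partner that the convertase Pcsk2 needs for its activation, and Pcsk1n encodes an inhibitor of the convertase Pcsk1. Because the whole gland was sampled, fewer chromaffin cells and less RNA per cell cannot be told apart in any level.

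Replicate 2 held 1003061 reads and replicate 1 held 981697 reads, of which ERCC spike-ins made up 1.79% in replicate 2 and 1.72% in replicate 1. Levels are counts per 1000000 reads without spike-ins (CPM), and since each long read comes from 1 cDNA molecule they were not divided by transcript length. A count of 3 reads, the limit that a count of 0 allows, stood for 3.05 CPM in replicate 2 and 3.11 in replicate 1. All 11 markers of chromaffin cells had reads, summing to 2350 CPM in replicate 2 and 2556 CPM in replicate 1. Markers of the steroid-producing cortex summed to 39260 CPM in replicate 2 and 39410 CPM in replicate 1, and those of Schwann cells to 196.9 CPM in replicate 2 and 249.8 CPM in replicate 1. Markers of sympathetic neurons summed to 54.8 CPM in replicate 2 and 185.5 CPM in replicate 1, and those of hepatocytes to 15660 CPM in replicate 2 and 753.5 in replicate 1. By the library test described with the levels, all 8 hepatocyte markers were higher in replicate 2, while 4 of 5 neuron and 2 of 5 Schwann cell markers tested were lower. Of 6 cortex markers Cyp11a1 was higher in replicate 2 and 3 were lower, Cyp21a1, Cyp11b1 and Star. That balance depends on the scaling, with 2 higher and 1 lower under edgeR's TMM factors, 2 higher and 2 lower under DESeq2's size factors, and 1 higher and 2 lower without the hepatocyte markers in the total. The part of the neuron and hepatocyte differences in the granin values was not tested.

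Chga and Chgb, which encode chromogranin A and chromogranin B, lie on different chromosomes, yet in the GENCODE M21 annotation both had an exon 2 of 47 bases and an exon 3 of 94 bases. Exon 3 held 2 cysteine codons in each gene, given here in capitals. In chromogranins a pair of cysteines closes the amino-terminal disulfide loop, which takes part in sorting to the granule. The sequences are from the GENCODE M21 transcripts (mm10, plus strand of both chromosomes).
Chga exon 3, chr12:102558466-102558559: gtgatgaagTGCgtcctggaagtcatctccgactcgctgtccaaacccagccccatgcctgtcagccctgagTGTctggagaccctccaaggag
Chgb exon 3, chr2:132786453-132786546: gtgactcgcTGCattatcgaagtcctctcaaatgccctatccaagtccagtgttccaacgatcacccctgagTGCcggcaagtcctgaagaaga
The 2 cysteine codons fell at the same places in both exons, and 52 of the 94 bases were identical (55.3%) when the exons were set end to end without a gap. After exon 3 the genes differed: Chga went on through 5 further exons, while in Chgb a single exon of 1766 bases held most of the 2740-base transcript.

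Another member whose sequence carries a result is Scg2, the gene of secretogranin II, the precursor of the peptide secretoneurin. Its main transcripts differed by a 120-base stretch inside the coding sequence, chr1:79435932-79436051 on the minus strand of mm10. It is shown in capitals with flanking exon in lower case, because its removal or retention defines the main isoforms of the gene.
Scg2 stretch: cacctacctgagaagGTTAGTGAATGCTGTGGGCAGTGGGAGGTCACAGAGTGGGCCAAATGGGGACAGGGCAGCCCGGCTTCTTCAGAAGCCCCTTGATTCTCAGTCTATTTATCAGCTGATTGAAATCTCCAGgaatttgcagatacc
The stretch began with GT and ended with AG, the bases at the ends of most introns. The long form (ENSMUST00000049972.5) keeps it and the short form (ENSMUST00000185234.1) lacks it. It covered coding bases 954 to 1073 of the long form, an in-frame length of 40 codons, so that the long form has 617 codons and the short form 577, without the stop codon.

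Coding sequences of the members were rich in acidic codons, the property by which granins are known. Of the 9959 protein-coding genes with a complete annotated coding sequence and at least 10 reads, the median gene had 11.9% glutamate and aspartate codons. Chgb reached 23.2%, Chga 21.8%, Vgf 20.3%, Scg3 20.0% and Scg2 19.1%, all above the 96th percentile of those genes. The convertase partners were closer to the middle, with 14.6% in Scg5 (percentile 80.1) and 13.2% in Pcsk1n (percentile 66.1). Resp18, which encodes a small protein of endocrine granules, had 8.0%, at percentile 10.8, and so did not share the feature. Pairs of neighbouring lysine or arginine codons, where convertases can cut, numbered 19 in Chgb, 12 in Vgf, 9 in Scg2, 8 in Chga, 7 in Scg3, 5 each in Scg5 and Pcsk1n and 2 in Resp18. Per 100 codons the range ran from 1.14 in Resp18 to 2.81 in Chgb, against a median of 1.32 over all genes, and Resp18 alone of the 8 was below that median. Several members were not far above it, with Scg2 at percentile 57.7, Scg3 at 59.5 and Chga at 69.2. Pcsk1n lay at percentile 76.2, Vgf at 76.5, Scg5 at 85.5 and Chgb at 91.3. Cysteine codons numbered 2 each in Chgb and Scg5, 3 in Chga, 1 each in Pcsk1n and Vgf, and 4 in the 175 codons of Resp18. They were absent from Scg2 and Scg3, and the median over all genes was 8.

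**Figure D1:**
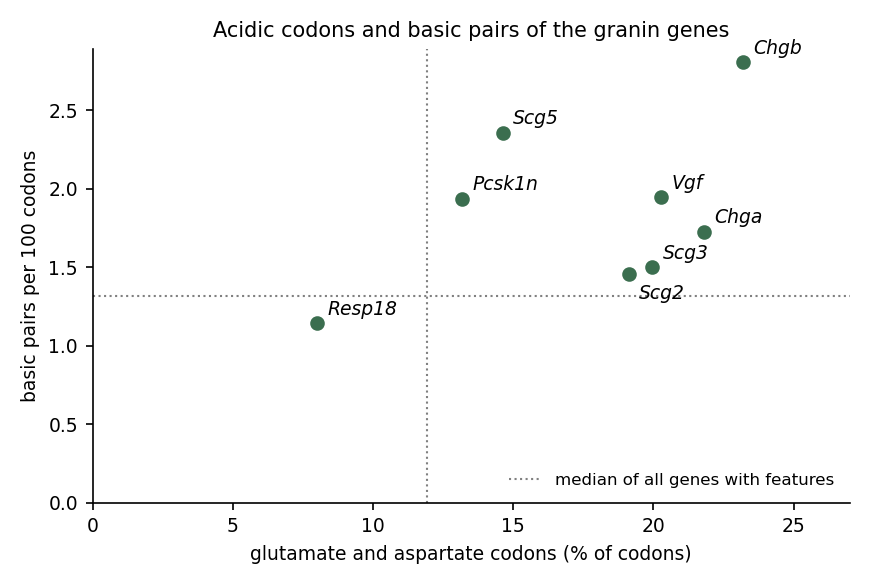
Acidic codons (x axis, % of codons) and basic pairs per 100 codons (y axis) of each granin gene's most abundant annotated coding sequence, with dotted lines at the medians of 9959 genes. Chgb, with 23.2% acidic codons and 2.81 basic pairs per 100 codons, lies highest on both axes, and Resp18 lies below both medians.

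Some members carried the bases TGACGTCA or its first 6 bases near the start of the gene, the letters of the cAMP response element through which CREB proteins bind DNA. RefSeq promoters (GRCm38.p6, 250 bases before to 50 after the RefSeq start) matched 7 of the 8 members, all except Vgf. The 8-letter motif TGACGTCA, which reads the same on both strands, was found in Chgb and Scg2, and in 1.79% of 32851 promoters. The 6-letter core TGACGT, searched on both strands and contained in the longer motif, was found in Chgb, Scg2, Chga and Scg5, and in 7.51% of promoters. TATAAA, also searched on both strands, was found in Chga alone among the members and in 13.6% of promoters. The stretches around the first match in the leading genes are shown with the matched letters in capitals: TGACGTCA in Chgb and Scg2, and TGACGT and TATAAA in Chga.
Chga, chr12:102554877-102554968, plus strand: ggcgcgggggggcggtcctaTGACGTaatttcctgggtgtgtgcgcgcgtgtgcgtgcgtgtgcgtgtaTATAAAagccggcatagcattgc
Chgb, chr2:132781559-132781588, plus strand: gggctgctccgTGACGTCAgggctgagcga
Scg2, chr1:79440076-79440105, minus strand: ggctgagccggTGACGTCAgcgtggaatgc
The motif began 72 bases before the RefSeq start in Chgb, 68 bases before it in Scg2 and 44 bases before it in Chga. Annotations disagreed on where these genes start. The deposited known Chga model began further downstream, 72 bases after the motif's first base. TATAAA of Chga thus began 5 bases after the RefSeq start but 23 bases before the model start. In Chgb the deposited model began further upstream, which put the motif 292 bases inside its exon 1. In Scg2 the motif lay 26 bases inside the long-form model and 52 bases before the short-form model. A known model carries the annotated start whatever the read covered, so the files do not show which start was used, and a match to these letters is not a measured site.

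Chgb and Chga were among the most abundant transcripts of the gland. Chgb (ENSMUSG00000027350.8, chr2:132781278-132795079 in mm10) had 3065 reads in replicate 2 and 3010 in replicate 1, which is 3116 ± 5.95 CPM (SD, n = 2) and rank 15 of 18177 genes. Chga (ENSMUSG00000021194.6, chr12:102554969-102565028) had 2576 reads in replicate 2 and 2551 in replicate 1, 2629 ± 20.6 CPM, at rank 21. Near Chgb in mean level stood Ndufa4, of the mitochondrial respiratory chain, with 3439 CPM in replicate 2 and 2985 in replicate 1, and Cidea, a lipid droplet protein, with 3044 CPM in replicate 2 and 3129 in replicate 1. Akr1c18, a progesterone-metabolising enzyme, was near it by its mean alone, with 4130 CPM in replicate 2 and 2084 in replicate 1. These neighbours were chosen by mean level only, since 2 libraries of 1 tissue give no pattern across conditions.

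Scg2 (ENSMUSG00000050711.7, chr1:79434669-79440120) followed with 918 reads in replicate 2 and 933 in replicate 1, 949.5 ± 24.9 CPM, at rank 114. Scg3 (ENSMUSG00000032181.7, chr9:75643189-75684056), whose product binds chromogranin A and cholesterol at the granule membrane, was far lower, with 21 reads in replicate 2 and 16 in replicate 1, 19.0 ± 3.35 CPM. Among the convertase partners Pcsk1n (ENSMUSG00000039278.10, chrX:7919822-7924410) had 168 reads in replicate 2 and 169 in replicate 1, 172.9 ± 3.27 CPM. Scg5 (ENSMUSG00000023236.7, chr2:113776362-113829121) had 62 reads in replicate 2 and 46 in replicate 1, 55.3 ± 10.8 CPM. Resp18 (ENSMUSG00000033061.15, chr1:75272199-75278415) had 64 reads in replicate 2 and 59 in replicate 1, 63.1 ± 2.70 CPM. Vgf (ENSMUSG00000037428.14, chr5:137026392-137033351), the precursor of neuroendocrine peptides that nerve growth factor induces, was the lowest member with 11 reads in replicate 2 and 19 in replicate 1 (15.4 ± 6.03 CPM), and it still lay above the level of 3 reads in both libraries.

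The order of the means ran Chgb, Chga, Scg2, Pcsk1n, Resp18, Scg5, Scg3, Vgf. Neighbours were separated by more than the spread of the libraries except in 2 pairs, Resp18 with Scg5 and Scg3 with Vgf, whose values overlapped. Chgb exceeded Chga by only 1.19-fold in the ratio of means, but in both libraries. The family as a whole had 6885 reads in replicate 2 and 6803 in replicate 1, that is 0.699% of all reads in replicate 2 and 0.705% in replicate 1. Chgb made up 44.4% ± 0.19 of the family's reads (SD, n = 2), Chga 37.5% ± 0.06 and Scg2 13.5% ± 0.27. Together those leading genes held 95.3% of the family in replicate 2 and 95.5% in replicate 1, so the remaining 5 genes shared under 5% of it.

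**Figure D2:**
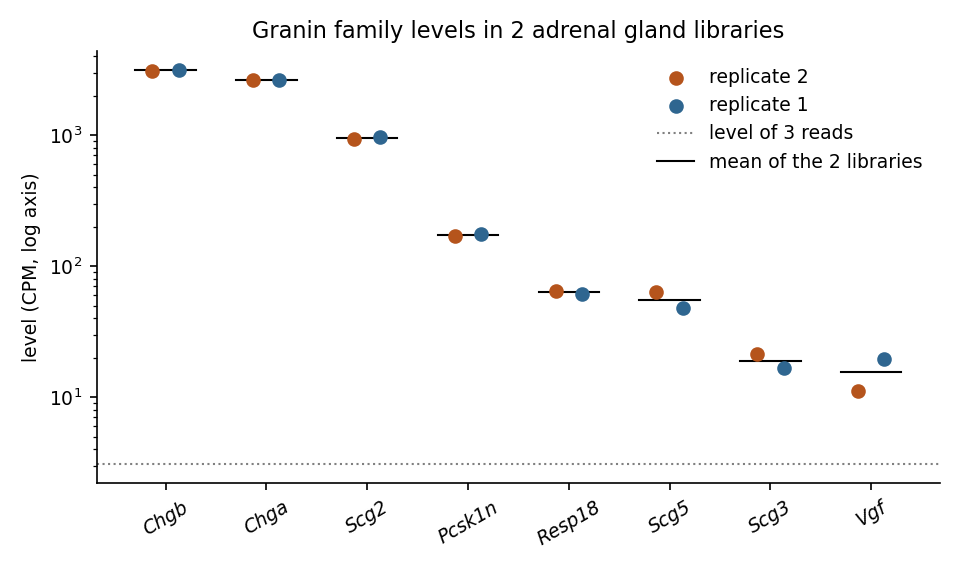
Level of each granin gene (CPM, log axis) in replicate 2 (left point) and replicate 1 (right point), with the mean as a bar and the level of 3 reads as a dotted line. Chgb and Chga, at 3116 and 2629 CPM on average, lie highest, Scg2 lies between 931.9 and 967.0 CPM, and the points of Vgf (11.2 CPM in replicate 2 and 19.7 CPM in replicate 1) are the farthest apart on this axis.

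No member was called different between the libraries. A two-sided exact binomial test of each gene's reads, adjusted by Benjamini-Hochberg over all 11094 genes with at least 10 reads, called 0 of 8 members, against 9.17% of all genes tested (1017 genes). Without adjustment 0 of 8 members had a p under 0.05, the lowest being 0.146 for Vgf. The ratio of replicate 2 to replicate 1 was 0.997 in Chgb (exact 95% interval 0.948 to 1.05), 0.989 in Chga (0.936 to 1.05), 0.964 in Scg2 (0.879 to 1.06) and 0.974 in Pcsk1n (0.782 to 1.21). Intervals were wide for the rarer members, from 0.887 to 1.98 around a ratio of 1.32 in Scg5 and from 0.244 to 1.25 around 0.567 in Vgf, so differences of that size were not detectable at this depth. All such intervals cover counting error only.

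The members' median log2 ratio was -0.01. The median of all genes tested was -0.15, so the members' median lay above that of all genes. The members' median absolute log2 ratio was 0.07 against 0.36 over all genes tested. That comparison was not matched for reads, so it does not show that members differed less than genes of similar level. By member the log2 ratio was -0.0039 in Chgb, -0.0159 in Chga, -0.0534 in Scg2, -0.0386 in Pcsk1n and 0.0873 in Resp18. In the rarer members it was 0.401 in Scg5, 0.362 in Scg3 and -0.819 in Vgf. With edgeR's TMM scaling, which moves the median gene to 0.00, the calls changed: Chgb (ratio 1.11, adjusted p = 0.00121, exact binomial test) and Chga (ratio 1.10, adjusted p = 0.0109, exact binomial test) were then higher in replicate 2. With DESeq2's size factors only Chgb was called (ratio 1.08, adjusted p = 0.0384, exact binomial test). The direction of the differences of these leading genes therefore depends on the scaling. Of all 11094 genes tested, 872 were called under TMM scaling and 867 under DESeq2's size factors.

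Other genes of the chromaffin granule were called at a share near the background. Of a list of 51 granule genes, 46 had reads and 36 had at least 10, of which 4 were called (9.17% of all genes tested were), all of them lower in replicate 2. The median log2 ratio of the 36 was -0.32, against -0.15 over all genes tested. Among peptide cargo 0 of 5 were called, with neuropeptide Y, Npy, highest at 472.6 ± 27.9 CPM (SD, n = 2), then the neuropeptide galanin (Gal, 38.9 ± 6.68), the enkephalin precursor Penk (26.2 ± 2.56) and adrenomedullin (Adm, 24.2 ± 9.78). Among processing enzymes 2 of 10 were called: carboxypeptidase E, Cpe, which trims the basic residues that convertases leave (496.4 CPM in replicate 2 and 629.1 in replicate 1, ratio 0.789, adjusted p = 0.00231, exact binomial test), and dopamine beta-hydroxylase, Dbh, which makes noradrenaline inside the granule (158.4 CPM in replicate 2 and 216.6 in replicate 1, ratio 0.731, adjusted p = 0.0393, exact binomial test). The lysosomal proteases Ctsb (1268 ± 6.73 CPM) and Ctsl (274.7 ± 20.6 CPM) were the other abundant genes of this group.

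Of 9 membrane and transport genes tested, Ptprn, a transmembrane protein of granules, was called (41.6 CPM in replicate 2 and 75.7 in replicate 1, ratio 0.550, adjusted p = 0.0263, exact binomial test). Cytochrome b561, Cyb561, which regenerates ascorbate in the granule for Dbh, led this group with 352.1 ± 41.4 CPM, followed by the proton pump accessory genes Atp6ap1 (109.9 ± 19.0) and Atp6ap2 (72.8 ± 9.08). Among 12 exocytosis genes tested the membrane fusion protein Vamp2 was called (43.7 CPM in replicate 2 and 75.7 in replicate 1, ratio 0.577, adjusted p = 0.0444, exact binomial test), while the small GTPase Rab3a had 65.8 ± 18.4 CPM, and the fusion protein Snap25 had 22.7 ± 11.9 CPM. All 4 calls were lost under TMM scaling and under DESeq2 size factors, where 0 of 36 were called. Of all 11094 genes tested, 872 were called under TMM scaling and 867 under DESeq2 size factors. With the hepatocyte markers left out of the total, 2 of 36 were called, Cpe and Ptprn, again lower in replicate 2. That setting called 944 of all 11086 genes tested. Each of the 4 was called in the same direction as the sympathetic neuron markers Tubb3, Prph, Nefl and Gap43, of which 4 of 5 tested were lower in replicate 2 under every scaling tried. Their part in the granule values was not tested. Of the chromaffin markers Th, which makes the catecholamine precursor L-DOPA (ratio 0.894, adjusted p = 0.0365, exact binomial test), and Dbh were called, and neither was under TMM scaling.

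Most reads of the family matched known transcripts. Deposited models are classed by their intron chain: known models match an annotated transcript, incomplete ones match part of an annotated transcript, new ones hold an unannotated splice site or combination, and genomic ones, all unspliced in this family, are a class of their own. Known models took 76.8% of the family's reads in replicate 2 and 79.3% in replicate 1. By gene the share was highest in Resp18 (98.4% in replicate 2 and 94.9% in replicate 1) and Scg2 (91.3% in replicate 2 and 92.3% in replicate 1). It was 83.9% in replicate 2 and 80.5% in replicate 1 in Pcsk1n, and 75.8% in replicate 2 and 80.4% in replicate 1 in Scg5. Chgb had the lowest share of the 3 abundant members in both libraries, 73.0% in replicate 2 and 73.9% in replicate 1. Scg3 (71.4% in replicate 2 and 87.5% in replicate 1) and Vgf (72.7% in replicate 2 and 68.4% in replicate 1) rested on few reads. The median of the 6033 genes that had 20 or more reads per library was 78.1% in replicate 2 and 80.9% in replicate 1.

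Chga was the only one of 6 members tested whose known share differed between the libraries, at 75.4% in replicate 2 (Wilson 95% interval 73.7 to 77.1) and 80.6% in replicate 1 (79.0 to 82.1), with an adjusted p of 0.00231 by Fisher's exact test. In that test 0.812% of all genes were called. The difference lay mainly in unspliced reads, which numbered 339 (13.2%) in replicate 2 and 234 (9.17%) in replicate 1. When only models with several exons were counted, the shares were 86.9% in replicate 2 and 88.7% in replicate 1, and the adjusted p was 0.884 (Fisher's exact test). Over all annotated genes unspliced models other than known ones took 10.5% of reads in replicate 2 and 7.58% in replicate 1. Its part in the Chga value was not tested.

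**Figure D3:**
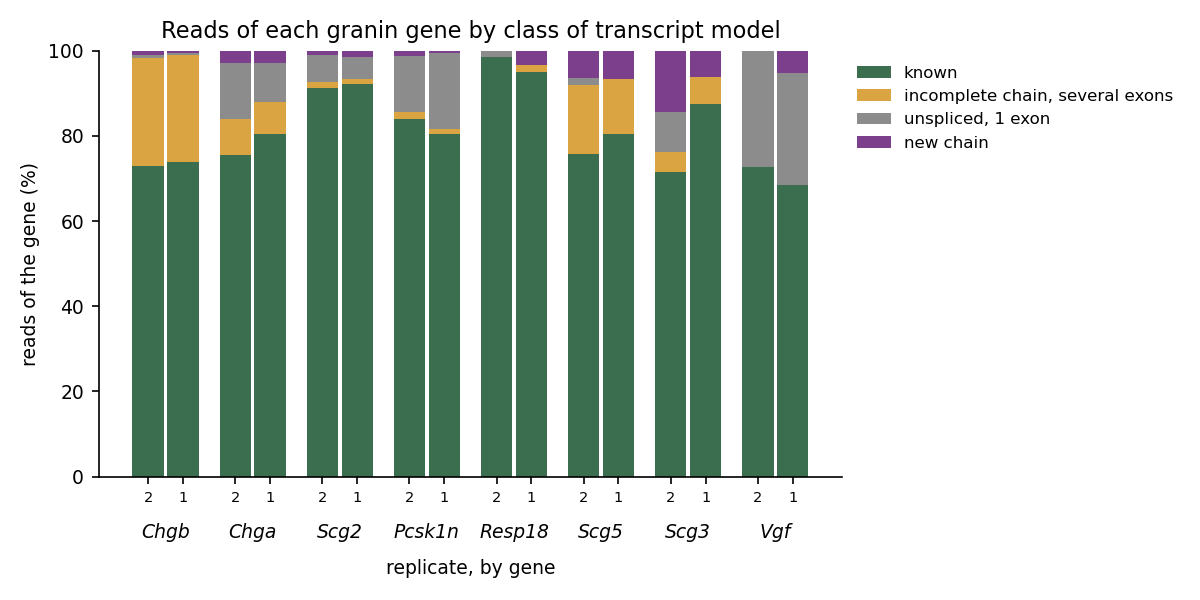
Share of each granin gene's reads (y axis, %) in known models, incomplete chains of several exons, unspliced models of 1 exon and new chains, in replicate 2 (left bar) and replicate 1 (right bar). Incomplete chains are largest in Chgb, unspliced models are visible in Chga, Scg2, Pcsk1n and Vgf and, in replicate 2, Scg3, and bars of Scg3 and Vgf rest on few reads.

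The incomplete reads of Chgb and Chga stopped at different places. In Chgb 745 reads (24.3%) in replicate 2 and 726 (24.1%) in replicate 1 belonged to 1 model that held only the last intron and began at the 1766-base exon 4. Reads that held 2 introns numbered 8 in replicate 2 and 6 in replicate 1, and those that held 3 introns 23 in replicate 2 and 17 in replicate 1. All 4 introns were held by 2236 reads in replicate 2 and 2225 in replicate 1. Nearly all Chgb reads thus held either the whole chain or its last intron alone, in similar proportions in both libraries. Since the start codon of Chgb is in exon 1, the 2-exon model does not hold it.

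In Chga the known chain of 7 introns had 1943 reads in replicate 2 and 2055 in replicate 1. Reads that held only the last intron numbered 113 in replicate 2 and 76 in replicate 1, and those that held the last 2 introns 36 in replicate 2 and 42 in replicate 1. Steps of 3, 4 or 5 introns had between 4 and 17 reads each per library, and 35 reads in replicate 2 and 33 in replicate 1 held all introns except the first. That last model began at position 102554986 of chromosome 12, within exon 1, so that the model ran through intron 1 unspliced. Model starts are not those of single reads, so how many of its reads reached exon 1 was not measured. Partial Chga reads were therefore spread over many steps, the shortest being the most frequent.

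**Figure D4:**
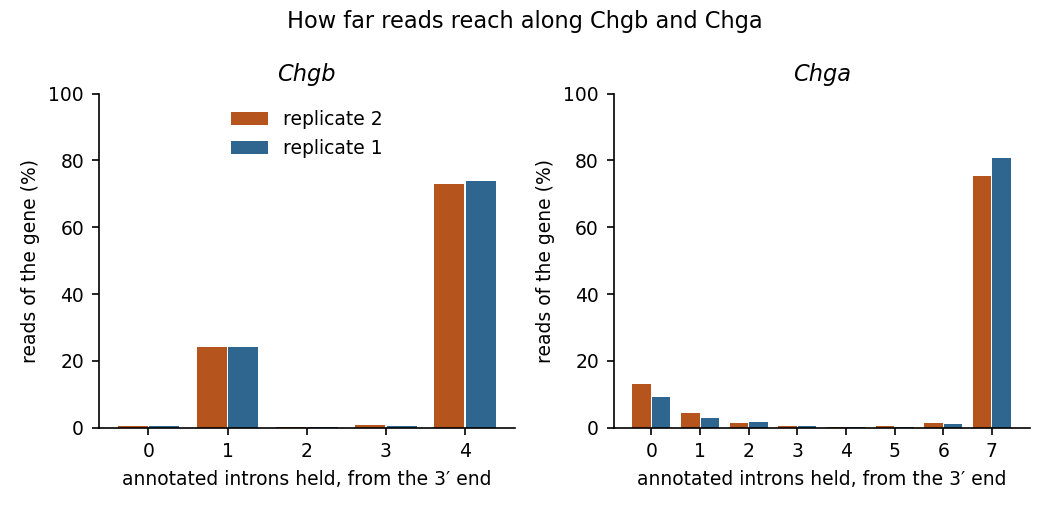
Share of reads (y axis, %) of Chgb (left) and Chga (right) by the number of annotated introns held, counted from the 3′ end (x axis), in replicate 2 (left bars) and replicate 1 (right bars), leaving out new chains. Below the full chain, Chgb has 24.3% of reads in replicate 2 and 24.1% in replicate 1 at 1 intron and under 1% at each other step, and the highest such step of Chga is unspliced reads, at 13.2% in replicate 2 and 9.17% in replicate 1.

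Partial reads were also found in the convertase partners. In Pcsk1n, 22 reads in replicate 2 and 30 in replicate 1 came from an unspliced model of the last exon. All 27 reads in replicate 2 and 33 in replicate 1 outside the known Pcsk1n model were in models that ended at position 7923234 of chromosome X, 1176 bases before the annotated end of the gene at 7924410. Known models carry the annotated end, so the ends of the known reads, 141 in replicate 2 and 136 in replicate 1, are not shown by the files. In Scg5, 7 reads in replicate 2 and 5 in replicate 1 held the last 3 of 5 introns, a model that lacks exon 2 with the start codon. Vgf had 3 unspliced reads in replicate 2 and 5 in replicate 1.

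Models that hold a complete annotated coding sequence took 73.1% of Chgb reads in replicate 2 and 74.0% in replicate 1. In Chga they took 75.6% of reads in replicate 2 and 80.9% in replicate 1. A known model carries the annotated start whatever the read covered, so a read cut short inside the first exon may be counted too. These shares describe models, and the coding sequence held by single reads was not measured. In Scg2 the share was 91.6% in replicate 2 and 92.4% in replicate 1, and in Resp18 98.4% in replicate 2 and 94.9% in replicate 1. The other members lay between 72.7% (Vgf) and 85.7% (Scg3) in replicate 2 and between 73.7% (Vgf) and 87.5% (Scg3) in replicate 1. Over 5856 protein-coding genes the medians were 80.0% in replicate 2 and 83.0% in replicate 1, so Scg2 and Resp18 stood above and Chgb and Chga below the median in both libraries. Scg3 and Vgf had few reads, and their Wilson 95% intervals included the medians. For Scg3 these were 65.4 to 95.0 in replicate 2 and 64.0 to 96.5 in replicate 1. For Vgf they were 43.4 to 90.25 in replicate 2 and 51.2 to 88.2 in replicate 1. In the long form of Scg2 the whole coding sequence lies in exon 2, the last exon.

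Of the 6 members tested for isoforms, 5 had nearly all full-splice reads in a single form, and Scg2 was divided between 2. Full-splice reads are those of known or new chains. Their top chain took 98.6% in replicate 2 and 99.2% in replicate 1 in Chgb, and 96.4% in replicate 2 and 96.7% in replicate 1 in Chga. In Pcsk1n, Resp18 and Scg5 it took between 92.2% (Scg5) and 100% (Resp18) in replicate 2 and between 92.5% (Scg5) and 99.3% (Pcsk1n) in replicate 1. In Scg2 it took 49.8% in replicate 2 and 49.1% in replicate 1. The median over the 6 tested members was 97.5% in replicate 2 and 96.6% in replicate 1, against 87.5% in replicate 2 and 87.6% in replicate 1 over the 4817 genes tested. Members and other genes were not matched for reads or for the number of annotated transcripts, so these medians do not show a trait of the family. Fisher's exact test called 0 of 6 members, against 0.125% of all genes (6 genes). Without adjustment 0 of 6 had a p under 0.05, the lowest being 0.0636 in Chgb.

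The long form of Scg2, which keeps the 120-base stretch, had 422 reads in replicate 2 and 429 in replicate 1. The short form, which lacks it, had 416 reads in replicate 2 and 432 in replicate 1. Counted over all spliced models, the stretch was removed in 50.6% of reads in replicate 2 (435 reads against 424 that kept it, Wilson 95% interval 47.3 to 54.0) and in 51.3% in replicate 1 (451 against 429, 48.0 to 54.5). Reads without the splice of the first intron were counted unevenly. A model of 12 reads in replicate 2 and 11 in replicate 1 entered only because the stretch was removed. Unspliced Scg2 reads, 58 in replicate 2 and 48 in replicate 1, were left out. How many of them kept the stretch was not measured, so the share removed may be too high. Both intervals include an equal split, and the adjusted p of the top-chain test was 1 (Fisher's exact test). The annotated starts of the 2 models differ as well, 79440120 for the long form and 79440042 for the short form. Model starts are not those of single reads, so that difference was not measured.

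Further rare splices cut into the same Scg2 exon. Of these, 4 introns shared the first base 79435779 and ended at 4 different places, with 3 reads in each library for the commonest, which removed 202 bases. Others were 103, 116 and 130 bases long and overlapped the 120-base stretch. All 7 began with GT and ended with AG, and only the 489-base one, seen in 1 read, was a multiple of 3 in length.

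Scg3 showed a choice of splice donor. The long form (ENSMUST00000034699.7) keeps 15 bases, chr9:75663193-75663207 on the minus strand, that the short form (ENSMUST00000213324.1) lacks, an in-frame length of 5 codons (471 against 466). The stretch is shown in capitals because it is the coding difference between the known Scg3 models that had reads.
Scg3 bases kept in the long form: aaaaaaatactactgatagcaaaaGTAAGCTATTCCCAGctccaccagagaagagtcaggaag
The long form had 10 reads in replicate 2 and 3 in replicate 1, and the short form had 5 in replicate 2 and 11 in replicate 1. Counting every spliced model, the 15 bases were kept in 10 of 18 reads (55.6%, Wilson 95% interval 33.7 to 75.4) in replicate 2 and in 3 of 15 (20.0%, 7.05 to 45.2) in replicate 1. The libraries leaned in opposite directions, but the intervals overlap. With under 20 full-splice reads in each library Scg3 was outside the test. When the minimum was lowered to 10 reads its adjusted p was 0.968 (unadjusted 0.0149, Fisher's exact test).

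**Figure D5:**
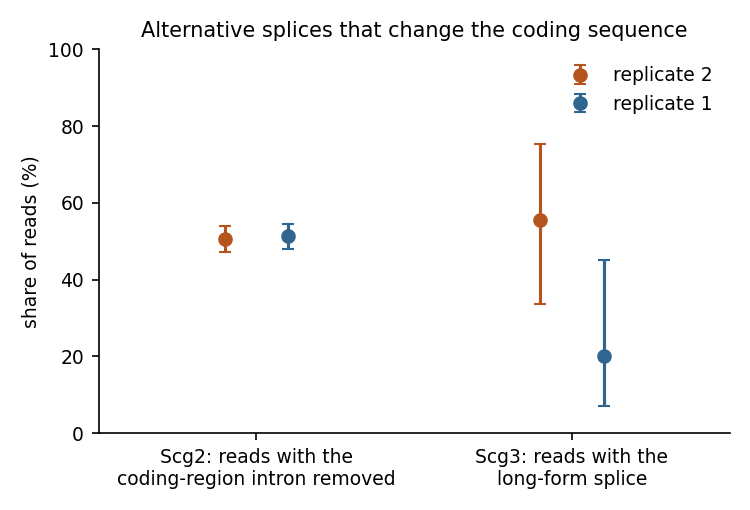
Share of reads of spliced models (y axis, %) in which the 120-base Scg2 stretch was removed and in which the long-form splice of Scg3 was used, in replicate 2 (left) and replicate 1 (right), with Wilson 95% intervals. Scg2 lies at 50.6% in replicate 2 and 51.3% in replicate 1 with narrow intervals, and the Scg3 intervals, from 18 reads in replicate 2 and 15 in replicate 1, overlap.

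New intron chains were many but thinly covered. The family had 100 of them with 237 reads in all, 25 chains were seen in both libraries, and 63 rested on 1 read. Chga had 50 new chains (73 reads in replicate 2 and 74 in replicate 1), Chgb 24 (32 reads in replicate 2 and 18 in replicate 1), Scg2 11 (10 in replicate 2 and 13 in replicate 1), Scg5 6, Scg3 and Pcsk1n 3 each, Resp18 2 and Vgf 1. Only 19 of the chains, with 30 reads, kept a whole annotated coding sequence.

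The most frequent new Chga chain used a donor 4 bases downstream of the annotated end of exon 7, in 10 reads in each library. A donor 4 bases downstream of exon 5 was used in 5 reads in each. Both shifts change the reading frame. Of Chga reads with a new donor within 20 bases of an annotated one, 31 of 33 were shifted by 4 bases, nearly all of them in these chains. Over all genes 34.8% of 13336 such reads were, which made it the commonest shift in the gland as a whole.

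At the other side of intron 4, 3 new acceptors lay 23, 35 and 41 bases inside Chga exon 5. They are shown on the first 60 bases of that exon, chr12:102561345-102561404, with the AG that ends each skipped stretch in capitals.
Chga exon 5: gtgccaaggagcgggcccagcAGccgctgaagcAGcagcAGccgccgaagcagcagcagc
The first had 8 reads in replicate 2 and 6 in replicate 1, the second 4 in replicate 2 and 3 in replicate 1, and the third 7 in replicate 2 and 4 in replicate 1. Each was found in both libraries, lay in a run rich in the triplet cag, and removed a length that is not a multiple of 3. Reads of the hybrid were aligned to mm10, and whether they were misplaced in this run was not tested.

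Exon skipping in Chga was rare. Exon 2 was skipped in 3 reads in replicate 2 and 4 in replicate 1, and exon 4, whose 69 bases are a multiple of 3, in 2 reads in replicate 2 and 3 in replicate 1. An extra exon upstream of the annotated start was spliced into Chga exon 1 in 1 read in replicate 2 and 4 in replicate 1. A like exon was spliced just before Chgb exon 1 in 4 reads in replicate 2 and 1 in replicate 1, and both chains kept the whole coding sequence. A Chga chain of 7 exons, whose model began inside intron 2 at position 102556406, had 4 reads in replicate 2 and 8 in replicate 1 and did not keep it. None of these chains reached 1% of its gene's reads in either library.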

How the data were processed

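Per the labels and the file headers, the authors deposited raw TALON read counts for each transcript model of long-read RNA libraries of adrenal gland aligned to mm10 and annotated with GENCODE M21, 1 table per library. The aligner and model filters: not given in the sources used here. Exon coordinates, exon numbers and lengths of models came from the deposited annotations.

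Counts were summed per annotated gene, and alleles of the hybrid were not separated. ERCC spike-ins were left out of library sizes, giving 985101 reads in replicate 2 and 964815 in replicate 1, of which 94.8% in replicate 2 and 95.4% in replicate 1 lay in annotated genes. The longer synthetic spike-ins named in the labels were not analysed here. All ratios are replicate 2 over replicate 1. Genes with 10 or more reads in all entered a two-sided exact binomial test against replicate 2's part of the total, and shares of known models (at least 20 reads in each library) and of the top intron chain (at least 20 full-splice reads in each, more than 1 chain) entered Fisher's exact test, all with Benjamini-Hochberg adjustment over every gene tested and a threshold of 0.05. Intervals are Wilson for shares and exact Clopper-Pearson for ratios at 95%. Reads carry no molecular identifiers in these tables, so intervals and floors cover counting error only.

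Members and gene lists were chosen with earlier results of these data known. Text names all members, their known models with a read, other multi-exon models with at least 5 reads and at least 1 in each library, the 4 highest genes of each granule role and any called, and the nearest genes to Chgb in level; a few of these are not reported here. List medians use log2 ratios with 0.5 reads added to each library. The rare Scg2 introns, the shared donor shift, the Pcsk1n ends, the sequence features and the promoter motifs were chosen after values were seen. Scg2, Scg3 and Chga sequences came from the GENCODE M21 transcripts and promoters from RefSeq tables of GRCm38.p6. Tools were Python 3.11.15 with scipy 1.17.1, pandas 2.3.3 and matplotlib 3.10.9, and R 4.3.3 with edgeR 4.0.16 and DESeq2 1.42.0 for scaling factors only. Both kinds of test were tested on simulated data. Alternatives changed the scaling, the minimum of reads, the models counted and the denominator, and left out each library.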

Additional observations from a re-analysis of the deposited data

How the results depend on the processing

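No paired analysis was possible because the series has 1 group. With TMM scaling 2 members were called between the libraries and with DESeq2 size factors 1, against 0 with total reads, without the liver list, with no minimum, with at least 50 reads and with known models only. Of all 11094 genes tested, 872 were called with TMM scaling, 867 with DESeq2 size factors and 1017 with total reads. Without the liver list 944 of 11086 genes were called, and with no minimum 869 of 18177. With at least 50 reads 855 of 5894 genes were called, and with known models only 760 of 8771. The known-share test called 0 members when only multi-exon models were counted, against 1. Levels in CPM moved by more than the spread between libraries when only reads in annotated genes formed the denominator (Chgb 3277, Chga 2765, Scg2 998.4, Pcsk1n 181.8, Resp18 66.3) and when the liver list was left out of it (Chgb 3141, Chga 2651). An SD of 2 libraries, here and in the levels above, can lie below counting error and is no measure of precision. With known models only the levels were 3207, 2874, 1221, 199.2 and 85.6 CPM for Chgb, Chga, Scg2, Pcsk1n and Resp18, and the family shares moved to 41.7% in Chgb, 15.9% in Scg2, 2.59% in Pcsk1n and 1.11% in Resp18. Counting multi-exon models only, the known share averaged 87.8% in Chga, 97.4% in Scg2, 97.2% in Pcsk1n and 96.4% in Vgf. With incomplete chains counted as spliced reads, the top chain averaged 73.8% in Chgb, 87.8% in Chga, 48.8% in Scg2, 97.2% in Pcsk1n and 78.7% in Scg5. Leaving out 1 of 2 libraries returns the other library's value, so it is no check of stability: Vgf then had 11.2 CPM (replicate 2 alone) or 19.7 CPM (replicate 1 alone), and the Scg3 top chain 27.8% (replicate 2 alone) or 73.3% (replicate 1 alone). At this depth members under about 50 reads, Scg3 and Vgf, allow no statement on isoform shares or on small differences in level.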
